A study of Mus musculus with 13 samples.

Results

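The FGF and MAPK feedback genes described here are 10 mouse genes of 4 families that growth factor signalling through the MAP kinase ERK commonly induces: the phosphatases Dusp4 and Dusp6, the Sprouty genes Spry1, Spry2 and Spry4, the Spred genes Spred1 and Spred2, and the Ets transcription factors Etv1, Etv4 and Etv5. They were taken by gene name from the authors' deposited comparison of Ikzf1 with control, which lists 35734 genes, and all 10 names were found there. All 10 passed the filter on low counts, as did 15584 genes in all.

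The RNA was measured in 8 libraries of CD1 mouse retinal cells, 4 from cells given GFP alone (control) and 4 from cells given Ikzf1 together with GFP through an Ikzf1-IRES-GFP construct. Retinas of postnatal day 0 were dissociated, transfected with an Amaxa kit, kept in culture for 9 h and then sorted on GFP. Each control replicate held 400000 cells and each Ikzf1 replicate 300000. Ikaros, the product of Ikzf1, is a zinc finger transcription factor, and the comparison asks what misexpressed Ikaros does to late-stage retinal cells. All cells of both groups came from CD1 mice, and the controls were dissociated, transfected and sorted in the same way. The promoter of the transfected constructs and the number of animals behind a replicate are not given in the sources used here. The replicates are called biological in the labels, and p-values measure the spread between these libraries.

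FGFs bind receptor tyrosine kinases at the cell surface, and the signal passes through Ras, Raf and MEK to ERK, which enters the nucleus and raises the transcription of early response genes. Among the genes it raises are inhibitors of the same pathway, which makes their RNA a widely used readout of ERK signalling. In the developing retina, FGF signalling is known for its part in the start of neurogenesis and in the maintenance of progenitors and of Müller glia.

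The libraries held 21.4 to 30.5 M estimated read pairs. Ikzf1 itself stood at 74.4 ± 7.68 CPM (reads of a gene at a fixed library total) among controls and 181365 ± 7305 CPM after Ikzf1 transfection (SD, n = 4 each), and its reads made up 15.9 to 17.2% of each Ikzf1 library, plasmid reads included. CPM values were therefore scaled by TMM, a method that sets libraries to a common level through the bulk of genes. The labelled cell type is retinal progenitor cells. All 12 progenitor markers listed were measured, with a summed level of 2074 to 2194 CPM in the controls and 1942 to 1990 CPM in the Ikzf1 libraries. Markers of photoreceptor precursors summed to 799 to 928 CPM and ganglion cell markers to 510 to 535 CPM in the controls, so markers of other cell types were present beside those of progenitors. Of the ganglion cell sum, 39.7% came from Nefm. In the authors' deposited table, Pou4f2 and Slc17a6 of that list had means of only 6.12 and 8.79 normalised counts. Isl1, Pou4f1, Sncg and Rbpms had means of 281 to 400, against 2642 for Gap43 and 1728 for Nefl. The sum therefore mostly follows Nefm, Gap43 and Nefl. In bulk samples, fewer cells of a type and less RNA per cell cannot be told apart.

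Of the 10 feedback genes, 8 were lower in the Ikzf1 libraries, 1 was slightly higher and 1 did not pass the test (edgeR quasi-likelihood test, Benjamini-Hochberg adjusted p under 0.05 over all genes tested). The comparison called 30.0% of all tested genes lower and 29.4% higher, so a single call is common here, and 8 of 10 is set against that share. The 10 genes were chosen with earlier results of these data known, so the comparison with that share only describes them. Tested genes of all levels enter the share, while the lowest control mean among the 10 was that of Spry1, 15.2 CPM. Dusp6, Spry2 and Spred2, 3 of the 10, fell by 1 or more in log2, against 6.42% of all tested genes. All Ikzf1 libraries lay below all controls for 7 of the 10, against 26.7% of tested genes, and all lay above for none of the 10, against 26.5%. The median log2 fold change of the 10 genes was -0.71, beside 0.00 for all tested genes. The authors' deposited table, in which 21.0% of genes with an adjusted p were lower and 20.8% higher, gave the same sign for each of the 10, and Etv5 did not pass there either (adjusted p 0.327). In an alternative fit, limma on log2 TPM, which changed the test, the pseudocount and the length division together with the scale, 7039 of all genes were lower and 1866 higher, and of the feedback genes 9 were lower.

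**Figure D1:**
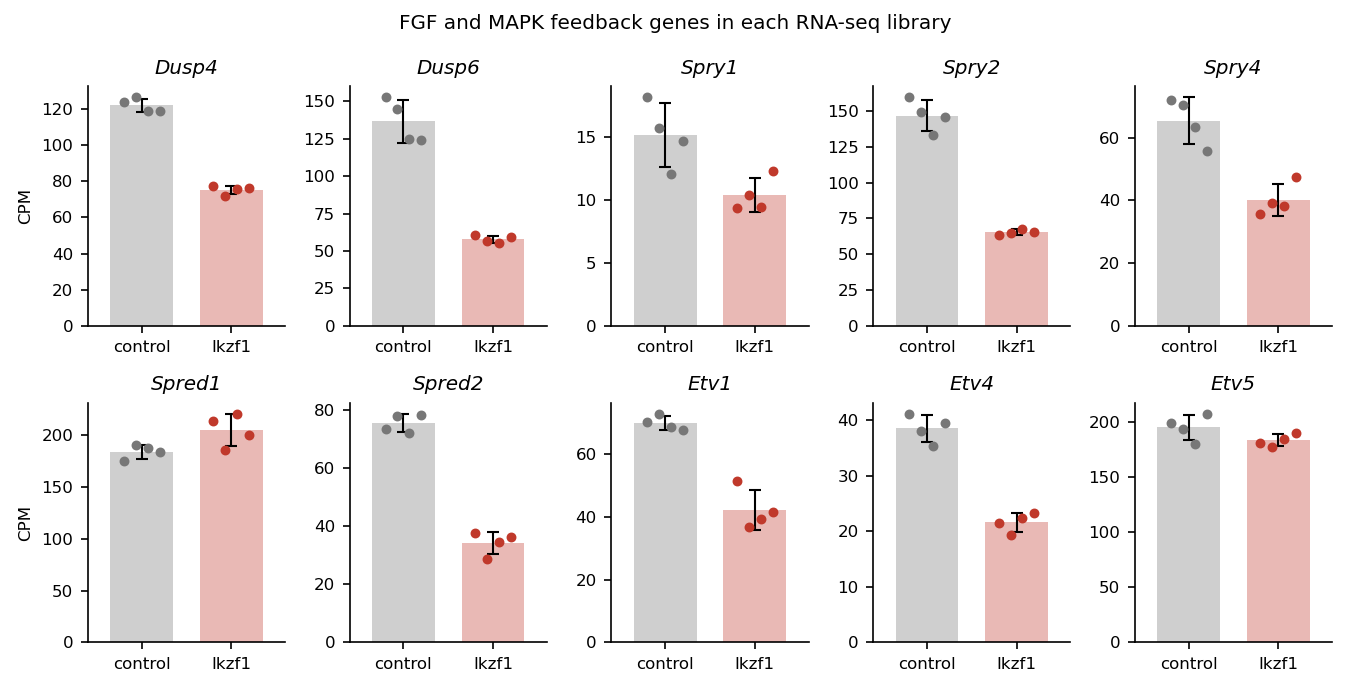
Level of each of the 10 feedback genes in CPM (TMM-scaled, vertical axes from 0) in the 4 control (grey) and 4 Ikzf1 (red) libraries; points are libraries, bars group means and error bars SD. The groups are apart for 7 genes and overlap for Spry1, Spred1 and Etv5.

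Both dual specificity phosphatases fell. Dusp6 encodes a cytoplasmic phosphatase that removes the activating phosphates from ERK, and Dusp4 a nuclear phosphatase that acts on ERK and other MAP kinases. Dusp6 (ENSMUSG00000019960, GRCm38 chromosome 10, 99263231 to 99267489, plus strand) measured 153, 145, 125 and 124 CPM in control replicates 1 to 4 and 60.4, 56.4, 55.4 and 59.2 CPM in Ikzf1 replicates 1 to 4. The controls of Dusp6 formed a higher and a lower pair, and every Ikzf1 library was below the lower pair. Its log2 fold change was -1.24 (SE 0.06, edgeR adjusted p 7.46e-14), which left 42.4% of the control level and was the largest fall among the 10 genes. Dusp4 (ENSMUSG00000031530, chromosome 8, 34807297 to 34819894, plus strand) measured 124, 126, 119 and 119 CPM in the 4 controls, against 77.2, 72.1, 75.6 and 76.1 CPM with Ikzf1. Libraries of one group lay close together for Dusp4, and the groups did not overlap. The change of Dusp4 was -0.70 in log2 (SE 0.04, edgeR adjusted p 7.25e-14).

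The sequence before the Dusp6 start is shown because this gene had the largest fall. It covers the 250 bases upstream of the start at chr10:99262981-99263230 on the plus strand, from RefSeq (GRCm38.p6), 5′ to 3′.
Dusp6: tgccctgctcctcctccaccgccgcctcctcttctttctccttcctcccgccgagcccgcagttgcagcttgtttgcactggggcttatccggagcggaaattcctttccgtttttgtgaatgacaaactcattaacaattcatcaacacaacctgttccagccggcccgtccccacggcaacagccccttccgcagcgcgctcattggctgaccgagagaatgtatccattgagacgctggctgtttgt
Windows of 250 bases before to 50 bases after a start were searched on both strands for 4 motifs: TGGGAA, the core of Ikaros sites, CCGGAA, a core of Ets sites, TGACGTCA, the cyclic AMP response element, and the CArG box of serum response factor. TGGGAA and CCGGAA share the letters GGAA, and capitals mark a match wherever a sequence is printed here. The RefSeq table held 9 windows for 7 of the 10 genes, and the Dusp6 window held none of the 4 motifs. Among all 32851 mouse windows of the same length, 25.6% held TGGGAA, 14.9% CCGGAA, 1.79% TGACGTCA and 1.63% a CArG box.

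All 3 Sprouty genes fell. Sprouty proteins are induced inhibitors that act between the receptor and Raf. Spry2 (ENSMUSG00000022114, chromosome 14, 105891947 to 105896819, minus strand) measured 159, 149, 133 and 146 CPM in the 4 controls, against 63.2, 65.1, 67.7 and 65.7 CPM with Ikzf1. The Ikzf1 libraries spanned a narrow range for Spry2, far below the lowest control. The change was -1.17 in log2 (SE 0.05), with the smallest adjusted p of the 10 genes (edgeR, 1.29e-17).

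Spry4 (ENSMUSG00000024427) measured 72.1, 70.3, 63.3 and 55.7 CPM in the 4 controls, against 35.7, 39.3, 38.1 and 47.5 CPM with Ikzf1. The groups were apart, but Ikzf1 replicate 4 lay nearest to the controls and control replicate 4 nearest to the Ikzf1 libraries. The log2 fold change of Spry4 was -0.70 (SE 0.10, edgeR adjusted p 0.00015). Spry1 (ENSMUSG00000037211, chromosome 3, 37639947 to 37644598, plus strand) measured 18.2, 15.7, 12.1 and 14.7 CPM in the 4 controls, against 9.40, 10.4, 9.44 and 12.3 CPM with Ikzf1. The groups of Spry1 overlapped, since control replicate 3 was below Ikzf1 replicate 4. Spry1 changed by -0.54 in log2 (SE 0.11, edgeR adjusted p 0.000236).

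The Spry2 sequences are shown because this gene fell most among the Sproutys and its window held a match. The 250 bases before the start at chr14:105896820-105897069 on the minus strand held none of the 4 motifs. The single CCGGAA match began at base 34 of the transcribed side, and the 30 bases around it lie at chr14:105896770-105896799 on the minus strand (RefSeq, GRCm38.p6).
Spry2 upstream: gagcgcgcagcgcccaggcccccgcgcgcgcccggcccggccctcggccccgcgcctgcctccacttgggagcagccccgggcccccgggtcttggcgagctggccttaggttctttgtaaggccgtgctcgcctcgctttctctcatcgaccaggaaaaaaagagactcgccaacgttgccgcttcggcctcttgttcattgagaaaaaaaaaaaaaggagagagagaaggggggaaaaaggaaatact
Spry2 site: gaggtcatctatcCCGGAAtccgggagggt
A match is a description of the letters and does not show that a factor binds there. The Spry1 window held none of the 4 motifs.

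The Spred genes parted. Spred proteins bring neurofibromin, an inhibitor of Ras, to the membrane. Spred2 (ENSMUSG00000045671, chromosome 11, 19924375 to 20024026, plus strand) measured 73.6, 78.2, 72.1 and 78.4 CPM in the 4 controls, against 37.6, 28.8, 34.7 and 36.2 CPM with Ikzf1. Every Ikzf1 library of Spred2 was far below every control, with Ikzf1 replicate 2 the lowest. Its log2 fold change was -1.14 (SE 0.06, edgeR adjusted p 2.75e-14).

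Spred1 (ENSMUSG00000027351, chromosome 2, 117121374 to 117182279, plus strand) measured 175, 190, 187 and 184 CPM in the 4 controls, against 213, 185, 220 and 200 CPM with Ikzf1. The groups overlapped, with Ikzf1 replicate 2 inside the control range and the other 3 above it. The log2 fold change of Spred1 was 0.15 (SE 0.05, edgeR adjusted p 0.00745), a rise to 111% of the control level. Its sign depended on the fit. With limma on log2 TPM, where the median of all genes stood at -0.20, Spred1 stood at -0.09 in log2 (limma adjusted p 0.227), which is 0.11 above that median.

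The Spred2 window held 1 TGGGAA match, beginning 59 bases before the RefSeq start, and the Spred1 window held none of the 4 motifs. The 30 bases around the Spred2 match lie at chr11:19924371-19924400 on the plus strand (RefSeq, GRCm38.p6) and are shown because the window held a match. The span of Spred2 in the authors' deposited table begins at 19924375, within these 30 bases. A link between the match and the fall of Spred2 was not tested.
Spred2 site: acctctggccgcTGGGAAgacgtcatcgct

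The Ets factors are not inhibitors but transcription factors of the PEA3 family that FGF signalling induces and that carry its response to target genes. Etv1 and Etv4 fell and Etv5, the family member with the highest TPM, did not pass the test. Etv4 (ENSMUSG00000017724, chromosome 11, 101769742 to 101785371, minus strand) measured 41.2, 38.1, 35.4 and 39.5 CPM in the 4 controls, against 21.6, 19.3, 22.4 and 23.4 CPM with Ikzf1. The Etv4 groups did not overlap. The fall came to -0.83 in log2 (SE 0.07, edgeR adjusted p 2.30e-11).

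Etv1 (ENSMUSG00000004151, chromosome 12, 38779380 to 38870484, plus strand) measured 70.1, 72.8, 68.7 and 67.9 CPM in the 4 controls, against 51.4, 36.7, 39.4 and 41.4 CPM with Ikzf1. Ikzf1 replicate 1 was the highest of its group but below every control. The log2 fold change of Etv1 was -0.73 (SE 0.08, edgeR adjusted p 4.39e-07). Its mean effective transcript length was 3414 bases in the controls and 3865 with Ikzf1. With an offset for transcript length the change of Etv1 was -0.90, and in the authors' deposited table -0.88. Etv5 (ENSMUSG00000013089, chromosome 16, 22381309 to 22439719, minus strand) measured 199, 193, 180 and 207 CPM in the 4 controls, against 181, 177, 185 and 190 CPM with Ikzf1. The Etv5 groups overlapped. Its log2 fold change was -0.09 (edgeR adjusted p 0.093), and the 95% interval ran from -0.18 to 0.0037. Without control replicate 3, Etv5 passed the test at -0.13 in log2 (edgeR adjusted p 0.0206).

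The window of the second RefSeq start of Etv5 held 2 TGGGAA matches, beginning 238 and 229 bases before that start. It is shown because no other window of these genes held more than 1 match. The 30 bases lie at chr16:22438584-22438613 on the minus strand (RefSeq, GRCm38.p6).
Etv5 site: tcatgaaTGGGAAggcTGGGAAttgggtgg
In all, TGGGAA was found in 2 of the 9 windows and CCGGAA in 1 of the 9, and the other motifs in none. The windows of Etv1 and the first window of Etv5 held none of the 4.

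**Figure D2:**
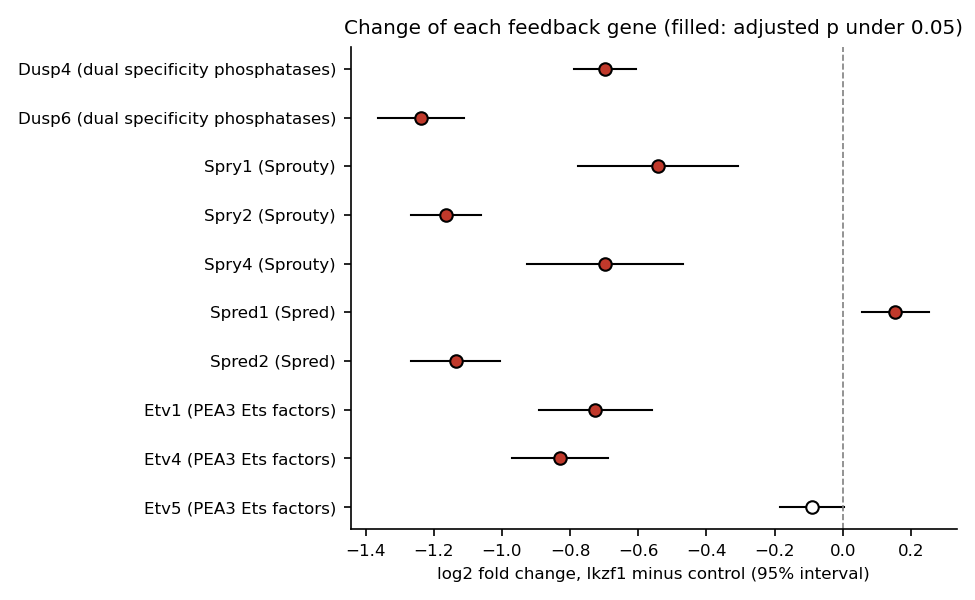
Log2 fold change of each feedback gene, Ikzf1 minus control, with its 95% interval (horizontal lines) from the edgeR fit; filled points have an adjusted p under 0.05. Dusp6, Spry2 and Spred2 lie below -1, Spred1 lies just above 0 and the interval of Etv5 reaches 0.

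Within the families, ratios of read counts in each library do not depend on how the libraries are scaled, so they tested whether relatives moved by different amounts. Of 8 pairs, 6 changed their ratio (exact permutation test, two-sided, p = 0.0286 each, the smallest that 4 against 4 libraries allow; adjusted over the 8 pairs, 0.0381). The Sprouty pairs share genes, as do the Ets pairs, so the 6 are not separate results. The share of other gene pairs that change was not measured. Among all tested single genes, the groups lay apart for 26.7% (lower) and 26.5% (higher), so changed ratios may be common here. The Spred pair changed most, from 2.44 Spred1 reads per Spred2 read in the controls to 5.98 in the Ikzf1 libraries, a rise of 1.30 on the log2 scale (95% interval 1.09 to 1.45). All Ikzf1 libraries lay above all controls for that pair.

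Dusp6 fell further than Dusp4: their log2 ratio, Dusp4 over Dusp6, went from -0.16 ± 0.11 to 0.38 ± 0.05 (SD, n = 4 each), and by TPM the higher of the pair was Dusp6 in every control and Dusp4 in every Ikzf1 library. Spry2 fell further than Spry4, with a difference in log2 ratio of -0.46 (95% interval -0.92 to -0.24), and further than Spry1, where the log2 ratio of Spry1 to Spry2 rose by 0.62 (95% interval 0.29 to 1.05). Both Etv1 and Etv4 fell relative to Etv5, by differences of -0.65 (95% interval -0.88 to -0.21) and -0.74 (95% interval -0.92 to -0.64). Each of these pairs had groups that did not overlap. Read-count ratios are not corrected for transcript length, so those with Etv1 carry the length shift of that gene.

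The other 2 pairs showed no difference that passed the test. The Spry1 to Spry4 log2 ratio differed by 0.16 (95% interval -0.09 to 0.47, exact permutation p = 0.257, adjusted 0.294). The Etv1 to Etv4 log2 ratio differed by 0.10 (95% interval -0.14 to 0.48, exact permutation p = 0.457, adjusted 0.457). These intervals leave room for unequal changes, and do not show that the members of a pair moved alike.

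**Figure D3:**
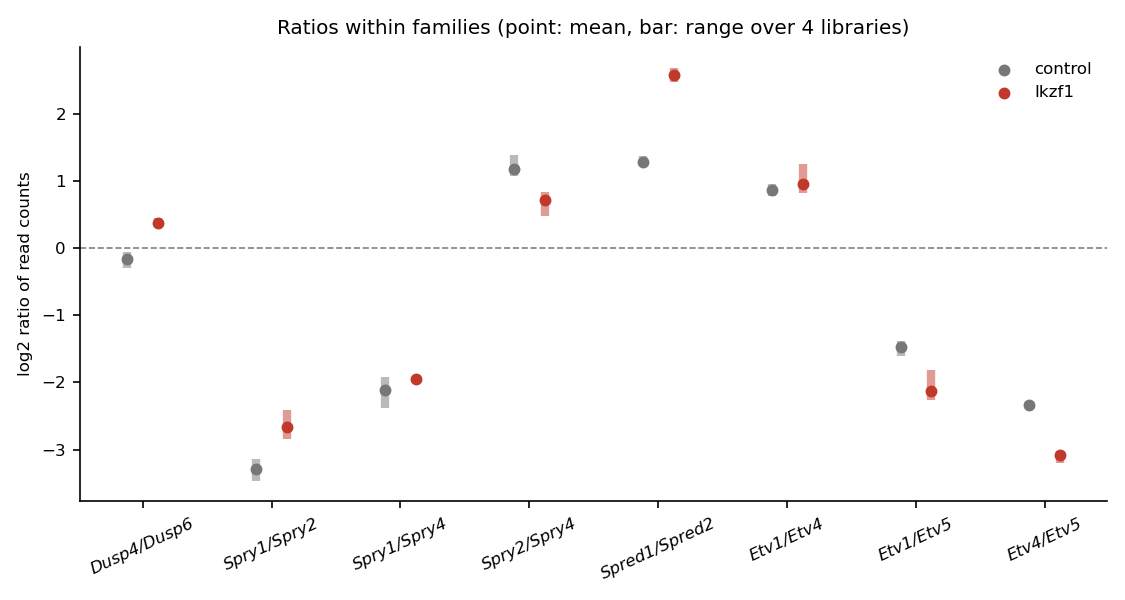
Log2 ratio of the read counts of 2 relatives (vertical axis) for 8 pairs, in control (grey) and Ikzf1 (red) libraries; points are group means and thick bars the range over 4 libraries. The ranges overlap for Spry1/Spry4 and Etv1/Etv4 and are apart for the other 6 pairs.

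Levels between genes were compared in TPM, which divides reads by transcript length and sets each library to the same total. In the controls Spry2 stood highest at 144 ± 9.71 TPM, followed by Dusp6 at 116 ± 14.8, Etv5 at 97.6 ± 5.40, Dusp4 at 89.7 ± 2.34, Spred1 at 62.7 ± 2.18 and Etv4 at 52.8 ± 4.29 TPM (SD, n = 4 each). Etv1 (38.8 ± 1.70 TPM) and Spred2 (38.1 ± 1.82 TPM) came next. Spry4 at 26.9 ± 2.94 and Spry1 at 12.4 ± 1.95 TPM were the lowest. In this order the library ranges of Spry2 and Dusp6, of Dusp6 and Etv5, of Etv5 and Dusp4, and of Etv1 and Spred2 overlapped. Within each single control library the order was the same, except that Etv1 and Spred2 changed places.

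In the Ikzf1 libraries the order changed at the top. Etv5 came first at 79.3 ± 3.06 TPM, then Spred1 at 59.0 ± 4.25 and Spry2 at 55.2 ± 1.59 TPM, and the library ranges of Spred1 and Spry2 overlapped. Dusp4 stood at 47.4 ± 1.46, Dusp6 at 41.4 ± 3.85, Etv4 at 24.2 ± 2.09 and Etv1 at 17.8 ± 2.80 TPM. Spred2 at 15.0 ± 1.99 and Spry4 at 14.2 ± 1.95 TPM lay above Spry1 at 7.27 ± 1.01 TPM. The ranges of Etv4 and Etv1, of Etv1 and Spred2, and of Spred2 and Spry4 overlapped. Within each single Ikzf1 library, Etv4 stood above Etv1 and Etv1 above Spred2, while Spred2 and Spry4 changed places. The Ikzf1 reads lower every other TPM value of those libraries. With the Ikzf1 gene taken out of the total, Etv5 stood at 96.7 ± 4.05 TPM, close to its control level of 97.6, and Spred1 at 71.9 ± 5.23 TPM.

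**Figure D4:**
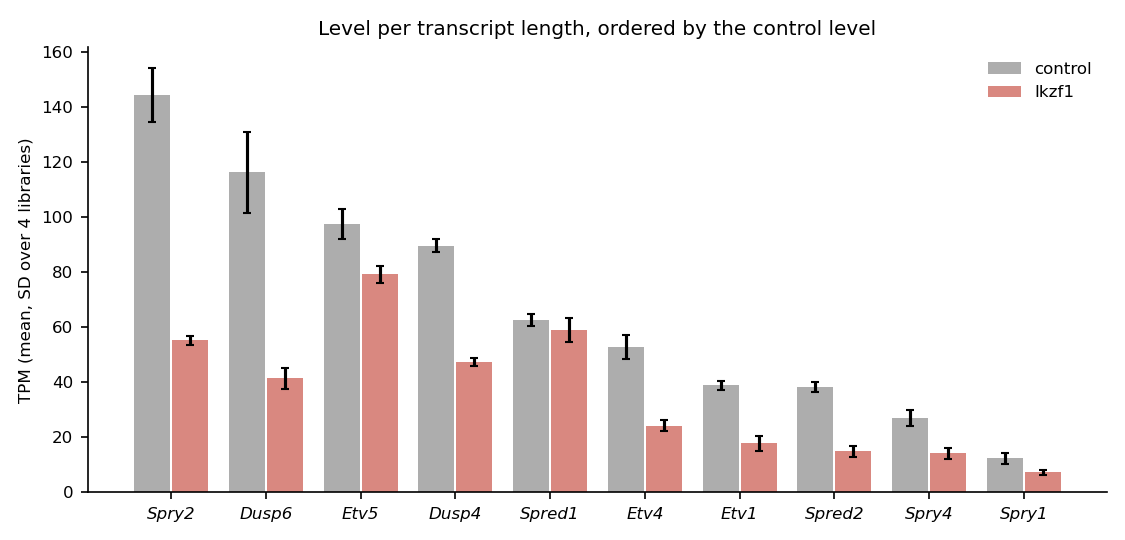
Mean level of each feedback gene in TPM (vertical axis from 0) in control (grey) and Ikzf1 (red) libraries, ordered by the control level, with SD over 4 libraries. Spry2 is highest in the controls at 144 TPM and Etv5 in the Ikzf1 libraries at 79.3 TPM.

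The transcripts behind these gene levels were examined where a second transcript took at least 10% of a gene's reads, which held for Dusp6, Spry1, Spred2, Etv1 and Etv4. The share of the main transcript did not pass the test in any of the 5 (exact permutation test, adjusted p 0.657 each), which leaves changes within the spread of the libraries undetected. For Dusp6 the main transcript took 82.6% ± 3.80 of control reads and 81.3% ± 5.75 of those with Ikzf1 (SD, n = 4 each). For Spry1 it took between 11.4 and 94.3% in single libraries of both groups, and the division of reads between such similar transcripts is uncertain. The second Etv1 transcript (ENSMUST00000159334.7) took 15.4% ± 1.77 of control reads and 24.5% ± 1.53 with Ikzf1, with no overlap (SD, n = 4 each). A rarer Etv1 transcript (ENSMUST00000160244.7) went the other way, from 7.88% ± 2.00 to 0.97% ± 1.94, also with no overlap. Both differences were noticed after the values were seen and were not tested.

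Variation of the 10 genes from library to library within the groups was described by correlation. After each group's mean was subtracted, 36 of the 45 pairs of genes had a Pearson r above 0 over the 8 libraries and 9 below, with a median of 0.41. The pairs share their libraries and scaling, and no matching values were computed for other genes. These values therefore only describe the pairs and show no trait particular to the 10 genes. The highest was Etv4 with Etv5 at 0.82 and the lowest Spry1 with Spred1 at -0.50. Among 10082 other genes with at least 10 CPM, those whose log2 pattern over the 8 libraries was most like the mean of 3 feedback genes, Dusp6, Spry4 and Etv5, included Ttc9c, Sox8, Coro2b and Scap, with root mean square differences of 0.05 to 0.06. The log2 fold changes of these lay between -0.70 and -0.64, which follows from choosing them by their likeness to a mean that differed by -0.675. That mean joins unlike genes, since the log2 fold change was -1.24 for Dusp6, -0.70 for Spry4 and -0.09 for Etv5. Sox8 is also on the list of Müller glia markers used here.

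Around the feedback genes, the pathway was read from lists of its parts, each given beside the shares of all genes called above (30.0% lower, 29.4% higher). These lists, too, were chosen with earlier results of these data known. Genes listed as other feedback inhibitors mostly fell: of 18 tested, 13 were lower, 3 higher and 2 not called, with a median log2 fold change of -0.36. This list is broad. It includes Dusp8 and Dusp16 (lower) and Dusp10 (higher), phosphatases that act mainly on other MAP kinases. It also includes Paqr3 and Socs3 (lower), Peli1 (higher) and Pebp1 (not called), which are not typical ERK-induced feedback genes. Relatives of the Spred and Sprouty genes were among the falls. Spred3 went from 86.5 ± 3.71 to 39.9 ± 4.09 CPM (log2 fold change -1.12, SE 0.06, edgeR adjusted p 5.69e-15), like Spred2 and unlike Spred1 in sign. Dusp9, a phosphatase of ERK, went from 3.07 ± 0.52 to 0.904 ± 0.201 CPM (SD, n = 4 each; log2 fold change -1.75). Spry3 (-1.63 on the log2 scale, from 1.52 CPM in the controls) and Dusp7 (-1.14) also passed the test and are named after their values were seen. Lrig3, a membrane protein of receptor regulation, rose by 0.87 on the log2 scale.

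Most genes on the list of other ERK targets fell: of 29 tested, 22 were lower, 1 higher and 6 not called, with a median log2 fold change of -0.68. The list is broad and also holds factors through which ERK acts, or their partners, rather than only genes it induces. Among these, Elk3, Srf and Erf were called lower, and Elk1, Elk4, Cic and Atxn1l were not called. The largest falls were among early response transcription factors. Egr3 went from 48.0 ± 3.14 to 4.14 ± 0.351 CPM (SD, n = 4 each), a log2 fold change of -3.54, and Egr2 from 34.4 ± 1.73 to 5.72 ± 1.09 CPM, -2.59. The log2 fold change was -1.98 for Fos, -1.91 for Myc, -1.54 for Junb, -1.24 for Fosb, -1.19 for Phlda1 and -1.11 for Fosl1 (edgeR adjusted p 3.26e-16 or smaller for the Fos and Egr genes named). Many stimuli besides FGF raise these genes. The 1 gene called higher, Gbx2 at 0.902 CPM in the controls (edgeR adjusted p 0.0409), lay near the threshold, and the number higher was 0 to 2 when single libraries were left out.

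The core of the cascade moved in both directions. Of the 20 members of the Ras, Raf, MEK and ERK core, 4 were lower, 9 higher and 7 not called, with a median log2 fold change of 0.07. The largest changes in the core were those of Rras, a Ras relative, at -2.58 in log2, and of Rps6ka1, an ERK-activated kinase, at 1.67. Of 26 adaptors and Ras regulators, 12 were higher, 9 lower and 5 not called, with a median of 0.09. The adaptor Shc2 had a log2 fold change of 0.72 and its relative Shc3 one of -0.95. With limma on log2 TPM, 10 core genes were lower and 3 higher, and 2 adaptors were higher.

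Of the FGF receptors and co-receptors, 9 of 10 were tested, and 5 were higher, 1 lower and 3 not called, with a median of 0.80. That median weighs each gene alike, whatever its level. Of the genes called higher, Fgfr2 and Fgfr4 stood at only 2.52 and 1.51 CPM in the controls, and the rest were Fgfrl1, Flrt1 and Flrt3. Of these, all but Flrt3 are named after their values were seen. The gene that fell was Fgfr1, which went from 73.2 ± 4.65 to 45.2 ± 2.74 CPM (SD, n = 4 each; log2 fold change -0.69, edgeR adjusted p 1.31e-11). Flrt3, a membrane protein that binds FGF receptors, rose from 19.8 ± 2.43 to 59.2 ± 4.54 CPM. Of 22 genes of the FGF family, 12 were tested, with 4 higher, 3 lower and 5 not called. The family list includes Fgf11, Fgf12, Fgf13 and Fgf14, intracellular proteins that are not ligands of the receptors, and Fgf13 (log2 fold change 0.56) and Fgf14 (0.32) were among those called higher; these are named after their values were seen. Fgf9 rose from 35.6 ± 1.27 to 58.3 ± 3.67 CPM, by 0.71 in log2, and Fgf15, a progenitor marker, went from 19.0 ± 1.06 to 16.5 ± 0.706 CPM (log2 fold change -0.20, edgeR adjusted p 0.0235). The number of FGF genes called lower was 1 with an offset for transcript length, and also without control replicate 2 or without Ikzf1 replicate 4. With limma on log2 TPM, 2 genes of the FGF list were higher and 2 receptors lower.

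Of 21 other receptor tyrosine kinase and EGF ligand genes tested, 13 were lower, 6 higher and 2 not called, with a median of -0.42. Egfr stood at 29.3 ± 4.36 CPM without and 10.1 ± 0.580 CPM with transfected Ikzf1, a change of -1.54 in log2, and Erbb2, its relative, went from 28.3 ± 1.26 to 6.59 ± 0.348 CPM (-2.10). Nrg1, a ligand of the Erbb receptors, had a log2 fold change of -1.95, and Flt1, a VEGF receptor, one of -2.42. Ntrk2, the BDNF receptor, rose by 1.55. With limma on log2 TPM, 3 genes of this list were higher.

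**Figure D5:**
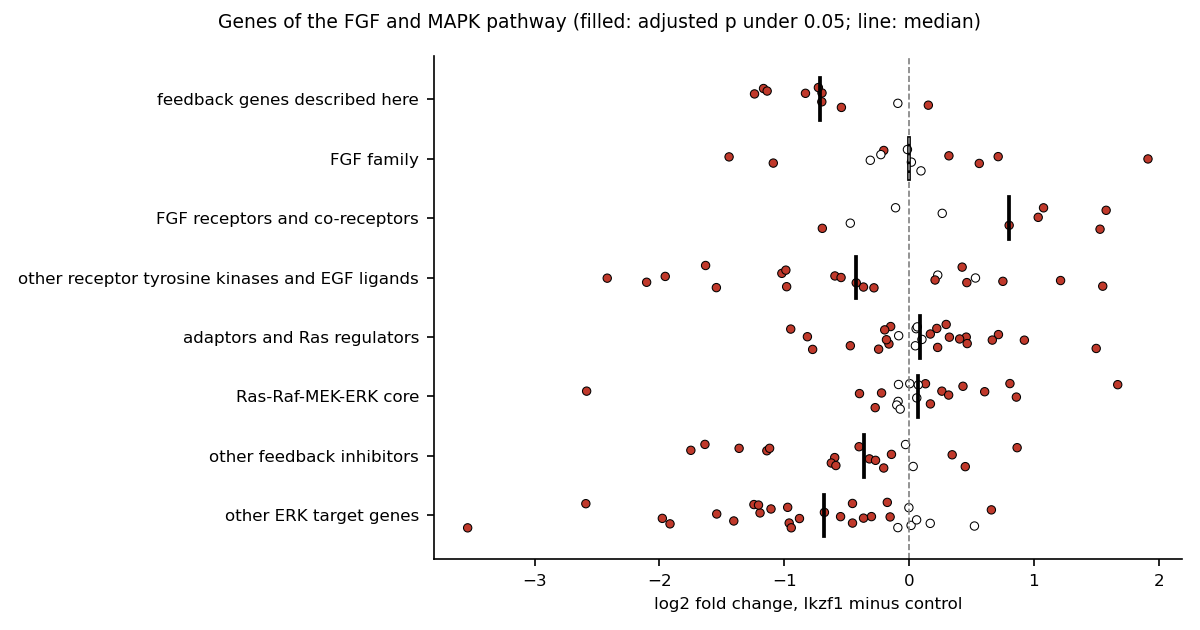
Log2 fold change, Ikzf1 minus control (horizontal axis), of the tested genes of each pathway list and of the 10 feedback genes (top row); filled points have an adjusted p under 0.05 and thick lines are medians. The medians run from -0.71 for the feedback genes and -0.68 for other ERK target genes to 0.80 for FGF receptors and co-receptors.

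Markers of cell types moved in the same comparison, in which 30.0% of all tested genes were lower and 29.4% higher. Of the 12 progenitor markers 3 were higher and 6 lower. Of 10 Müller glia markers tested 1 was higher and 6 lower, with sums of 949 to 1043 CPM in the controls and 802 to 851 CPM in the Ikzf1 libraries; Aqp4 was near 0, under a mean of 5 normalised counts in the authors' deposited table. Of 10 rod and photoreceptor precursor markers 9 were lower and none higher, and their sum went from 799 to 928 CPM in the controls to 461 to 522 CPM in the Ikzf1 libraries. The 8 ganglion cell markers tested split into 4 higher and 4 lower, with a sum of 273 to 292 CPM in the Ikzf1 libraries. Vascular markers summed to 402 to 472 CPM and to 206 to 246 CPM, with 98.6% of the sum from Kdr, while Cdh5 and Kcnj8 were near 0 by the same measure. So were Opn1mw and Arr3 of the cone list, Vsx1, Grm6, Scgn and Bhlhe23 of the bipolar list, P2ry12 and Aif1 of the microglia list, and Rpe65, Tyrp1 and Ttr of the pigment epithelium list.

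Sums fell with no overlap for cone markers too (110 to 140 and 85.7 to 97.2 CPM; 3 of 6 tested lower), for amacrine and horizontal cell markers (441 to 509 and 412 to 440 CPM; 7 of 12 lower) and for pigment epithelium markers (8.19 to 9.36 and 3.59 to 5.30 CPM; 1 of 3 lower). The bipolar sum was higher (21.6 to 24.97 and 34.4 to 35.2 CPM; 2 of 3 higher and 1 lower). Sums of microglia (7.87 to 10.9 and 8.29 to 9.86 CPM) and astrocyte markers (5.71 to 7.07 and 5.08 to 6.02 CPM) overlapped, lens markers stayed under 1 CPM, and none of the 4 erythrocyte markers passed the filter. The part of these shifts in the levels of the feedback genes was not tested.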

How the data were processed

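RNA-seq of 8 libraries was used. The authors' transcript files hold estimated counts of read pairs and TPM values made with Salmon, per the labels and the file headers, on mm10 per the submitters' processing notes; the version, annotation release and strand setting are not given in the sources used here. The authors' deposited table holds, per its header, a mean signal of normalised counts, log2 fold changes, a Wald score and p-values, made with DESeq2 per the labels.

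The transcript files name no genes. Runs of at most 60 neighbouring transcripts were matched to each gene's mean in that table (relative tolerance 5e-09; the library factors, solved from 13 mitochondrial genes, left a largest relative residual of 1.39e-10). Among the 16815 genes whose mean reached 5, 16627 were joined (98.88%), Etv5 in a second pass that kept runs taking no other gene's transcripts; 0.404% of shifted means also found a run. Genes under that mean were not tested, so lists of rare markers are incomplete.

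Counts were summed to genes, rounded, filtered with filterByExpr, scaled by TMM and tested in edgeR 4.0.16 (glmQLFit and glmQLFTest, robust, two-sided, no covariate), adjusted by Benjamini-Hochberg over 15584 genes with a threshold of 0.05. CPM uses TMM library sizes, and log2 ratios use counts. The 95% interval of a ratio difference holds the shifts that the exact permutation test does not reject. limma 3.58.1 on log2(TPM + 0.5) and DESeq2 1.42.0 were alternatives. The scripts were tested on simulated data.

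Members and lists were chosen with earlier results of these data known. Named from the lists were, per list, the called gene with the largest rise and the largest fall (mean of at least 1 CPM) and called genes with a change of at least 1 on the log2 scale, up to 25 by smallest p. CUT&RUN peak lists were not used here, since they are on mm9 and no annotation of that build was used. Some genes that the naming rules select are not reported here.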

Additional observations from a re-analysis of the deposited data

How the results depend on the processing

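The 8 falls and their calls held under every alternative and every left-out library. Spred1 turned to -0.0897 and Etv5 passed the test at -0.30 with limma on log2 TPM, where the median of all genes was -0.20, 9 feedback genes were lower and 0 higher, and 7039 genes were lower and 1866 higher. In that fit 17 genes of all lists, 2 FGF family genes, 3 other receptor genes, 2 adaptors and 3 core genes were higher, 2 FGF receptors and 10 core genes lower, and 0 ERK targets higher. That fit changed the test, the pseudocount, the length division and the scale together, and the cause was not tested. Leaving out single libraries gave a log2 fold change of -0.127 to -0.0592 for Etv5, 1 to 4 FGF family genes lower and 0 to 2 ERK targets higher. The length offset left 1 FGF family gene lower. ERK targets called higher were 2 with DESeq2 size factors, upper quartile scaling or Ikzf1 left out. By RPKM, Spred2 ranked 7 and Etv1 ranked 8 in the controls. 

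Same-numbered libraries did not deviate together (Pearson r -0.06 to 0.01), so the numbers were not taken as pairs. With the replicate number as a block, 4520 genes were lower and 4403 higher, 8 feedback genes lower and 1 higher, and 0 ERK targets higher; Spry4 had an adjusted p of 0.00716 (edgeR). Sign flips of 4 pairs cannot bring the exact p of a ratio to the threshold. Peak alternatives were not run, as no annotation of the lists' build was used.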
